A study of Mus musculus with 2 samples.

Results

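Cytokines, chemokines and their receptors are the genes by which T cells send and receive signals, and 3 of these 168 genes had a called peak of the histone mark H3K9bhb in CD8+ memory T cells treated with β-hydroxybutyrate. The genes were chosen by symbol: protein-coding RefSeq genes (assembly GRCm38.p6, which mm10 denotes) named Il, Ccl, Cxcl, Ccr, Cxcr, Tnfsf or Tnfrsf followed by a digit, 168 of 21900 protein-coding genes in all. A gene was said to have a peak when a summit, the position of highest signal in a peak, lay inside it or within 5 kb of it. The same count over every protein-coding gene gave 11.4%. The 3 genes were therefore chosen by the summit positions themselves, and their counts are given as a description, with no test. The 168 genes were classed by symbol, as 87 ligands, 78 receptors and 3 that are neither. These 3 are Il4i1, an amino acid oxidase gene, its namesake Il4i1b, and Il18bp, which encodes a secreted binding protein. The receptor antagonist gene Il1rn was counted as a ligand. Receptor accessory genes, and any decoy or soluble receptor with a receptor symbol, such as Il22ra2 and Tnfrsf11b, were counted as receptors.

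The study profiled 1 ChIP-seq library, made with an H3K9bhb antibody (4 µg), beside 1 input DNA library without antibody. Both came from spleen cells of OT-I mice on the C57BL/6 strain, whose transgenic T cell receptor recognises an ovalbumin peptide. The cultures received that peptide at 200 ng/ml with interleukin-2 at 10 ng/ml for 3 days, then interleukin-15 at 10 ng/ml for 4 days to form memory cells, and were exposed to β-hydroxybutyrate (BHB) over 3 days, at a dose the labels do not give. All values below come from the peak list of the ChIP library. It is 1 library, so nothing here has a replicate, and no culture without BHB was analysed here: a call describes the treated cells alone and shows no effect of BHB. The labels give 70 M reads for each library, but how many reads support any 1 peak is unknown. There were 2204 peaks, and their median score was 5.04, where the score is the −log10 p or q value that the peak caller gave at the summit. A peak list carries no RNA level, so the labelled cell type could not be checked by expression. None (0) of the 5 defining CD8+ T cell genes (Cd8a, Cd8b1, Cd3d, Cd3e and Cd3g) had a peak. The same count was 0 of 3 for B cell genes, 0 of 3 for myeloid genes, 0 of 2 for NK cell genes and 0 of 2 for CD4 T cell genes. These 15 genes are too few to read anything from that: a count of 0 allows a share of up to 20% (3 counts of the total), above the 11.4% of all genes.

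Interleukins and most chemokines are secreted proteins, and TNF superfamily ligands are membrane proteins that can be shed. Interleukin receptors signal mainly through JAK kinases and STAT factors, or, for the interleukin-1 and interleukin-17 groups, through adaptors that lead to NF-kB. TNF receptors use TRAF adaptors, and chemokine receptors couple to G proteins. In CD8+ memory cells the receptors for interleukin-7 and interleukin-15 are known for sustaining survival. H3K9bhb is a β-hydroxybutyryl group on lysine 9 of histone H3, formed from the ketone body BHB and known from promoters of active genes.

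Summits near the family mostly lay at other genes. Among the 8 members within 20 kb of a summit, 3 had an entry in the RefSeq promoter table (build GRCm38.p6) and a closest summit within 2 kb of a start that the table gives for a different gene, so the sequence before each start is shown in pairs. The neighbour with the summit comes first and the cytokine or receptor gene second. Each run gives the 250 bases before an annotated start, 5′ to 3′ on the strand of the gene, with CpG dinucleotides in capitals because CpG content is a basic property of promoters. The first pair lies on chromosome 11: Senp3 (chr11:69682085-69682334, minus strand), which encodes a SUMO protease, and Tnfsf13 (chr11:69685555-69685804, minus strand), which encodes the B cell factor APRIL.
Senp3: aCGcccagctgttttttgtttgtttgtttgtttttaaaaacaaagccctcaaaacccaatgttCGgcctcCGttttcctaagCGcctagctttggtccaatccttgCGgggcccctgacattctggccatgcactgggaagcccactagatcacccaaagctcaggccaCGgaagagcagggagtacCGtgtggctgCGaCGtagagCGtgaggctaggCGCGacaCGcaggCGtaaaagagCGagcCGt
Tnfsf13: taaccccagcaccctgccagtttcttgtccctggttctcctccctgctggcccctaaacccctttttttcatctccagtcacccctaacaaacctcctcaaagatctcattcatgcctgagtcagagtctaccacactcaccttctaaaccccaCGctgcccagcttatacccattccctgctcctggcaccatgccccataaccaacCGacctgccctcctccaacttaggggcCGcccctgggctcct
The other two pairs lie on chromosome 4. Park7 (chr4:150909922-150910171, minus strand) encodes the oxidative stress protein DJ-1, and Tnfrsf9 (chr4:150919905-150920154, plus strand) encodes the costimulatory receptor 4-1BB.
Park7: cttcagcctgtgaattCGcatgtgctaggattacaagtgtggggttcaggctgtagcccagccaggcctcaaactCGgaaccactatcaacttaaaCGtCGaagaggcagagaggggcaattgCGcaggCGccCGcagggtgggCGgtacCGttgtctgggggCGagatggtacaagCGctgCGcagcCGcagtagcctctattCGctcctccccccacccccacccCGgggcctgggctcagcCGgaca
Tnfrsf9: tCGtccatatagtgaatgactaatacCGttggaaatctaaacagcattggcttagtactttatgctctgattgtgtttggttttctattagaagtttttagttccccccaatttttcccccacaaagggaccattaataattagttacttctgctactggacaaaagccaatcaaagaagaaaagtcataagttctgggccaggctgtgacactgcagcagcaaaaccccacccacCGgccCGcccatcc
Vps13d (chr4:145195006-145195255, minus strand) encodes a lipid transfer protein, and Tnfrsf1b (chr4:145246871-145247120, minus strand) encodes TNF receptor 2.
Vps13d: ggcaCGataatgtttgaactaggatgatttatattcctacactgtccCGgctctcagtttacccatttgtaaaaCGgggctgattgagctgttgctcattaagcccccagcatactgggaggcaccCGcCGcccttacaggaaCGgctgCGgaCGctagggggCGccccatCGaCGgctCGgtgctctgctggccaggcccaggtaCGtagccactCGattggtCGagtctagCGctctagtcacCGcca
Tnfrsf1b: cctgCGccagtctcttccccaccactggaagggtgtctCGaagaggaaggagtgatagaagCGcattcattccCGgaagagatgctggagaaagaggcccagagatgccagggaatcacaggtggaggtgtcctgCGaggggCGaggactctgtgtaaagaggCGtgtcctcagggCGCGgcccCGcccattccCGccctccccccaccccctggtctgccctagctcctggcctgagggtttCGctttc

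The windows of the neighbours Senp3, Park7 and Vps13d held 16, 16 and 17 CpG dinucleotides. The Senp3 window belongs to a start 257 bp from the summit, and not to the closer annotated start, 143 bp away. The Tnfsf13 window held 3, the Tnfrsf9 window held 4 and the Tnfrsf1b window held 12, beside a median of 10 and quartiles of 3 and 19 over the 21263 windows of protein-coding genes. In these 3 pairs the neighbour had more CpGs than the member beside it. Another pair, Il17rd and Arhgef3, went the other way: the Il17rd window held 10 CpGs and the Arhgef3 window closest to the summit held 4. That pair is not shown because the Arhgef3 starts in the table are 29173 bp or more from the summit. The summit itself lay 359 bp inside the end where Arhgef3, on the plus strand, begins. No window was at hand for that end, so the 4 CpGs are not those of the sequence at the summit. The pairs were picked by summit position and are 3 examples, not a comparison of classes: windows were at hand for 129 of 168 members (76.8%), under the 80% set for such a comparison, which was void for that reason. Of 6 motifs searched on both strands (matches may overlap), the Sp/Klf motif GGGCGG was in the windows of Park7, Vps13d, Tnfsf13, Tnfrsf9 and Tnfrsf1b, and in 42.6% of all windows. The STAT motif TTCNNNGAA (6.58% of windows) and the Ets motif CCGGAAG (8.98%) each matched in the Tnfrsf1b window, and the TATA motif TATAAA (11.6%) matched in that of Vps13d. The cAMP response element TGACGTCA (1.92%) and the E-box CACGTG (6.63%) matched in none of the 6 windows. A match is a run of letters and not a bound site.

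The receptor gene Il10rb was the 1 member with a summit inside it. Il10rb (chromosome 16, 91406157 to 91425834) encodes the shared second chain of the receptors for interleukin-10, interleukin-22 and type III interferons. Its summit at 91406382 lay 225 bp inside the lower-coordinate end and scored 2.49. This was a low score: 92.2% of all peaks equalled or passed it, and 32 peaks shared that value. On the other side of the summit lay Ifnar2, which encodes a chain of the type I interferon receptor, with its closest end 793 bp away. Ifnar2 is on the plus strand, so that end is where its transcript ends, and its start was 33599 bp from the summit. Il10rb has no entry in the promoter table, so which of its ends is the start was not determined here.

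Both ligand genes with a peak were counted for 1 summit, and that summit was inside another gene. It lay on chromosome 11 at 69681827, 257 bp inside Senp3 and 143 bp from the closer of its annotated starts, and scored 2.74, a value that 84.8% of peaks reached or passed. Tnfsf13 (chromosome 11, 69682577 to 69685554) lay 750 bp away. It is on the minus strand, so the summit was beyond its transcript end and 3727 bp from its start, whose sequence is the second of the first pair. Tnfsf12 (chromosome 11, 69686240 to 69696098), which encodes the TNF family ligand TWEAK, lay 4413 bp away. The annotated gene Tnfsfm13 spans both and is not a member by its symbol. The 3 members with a peak thus rested on 2 peaks, and 1 of these was nearest to an end of a member.

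**Figure D1:**
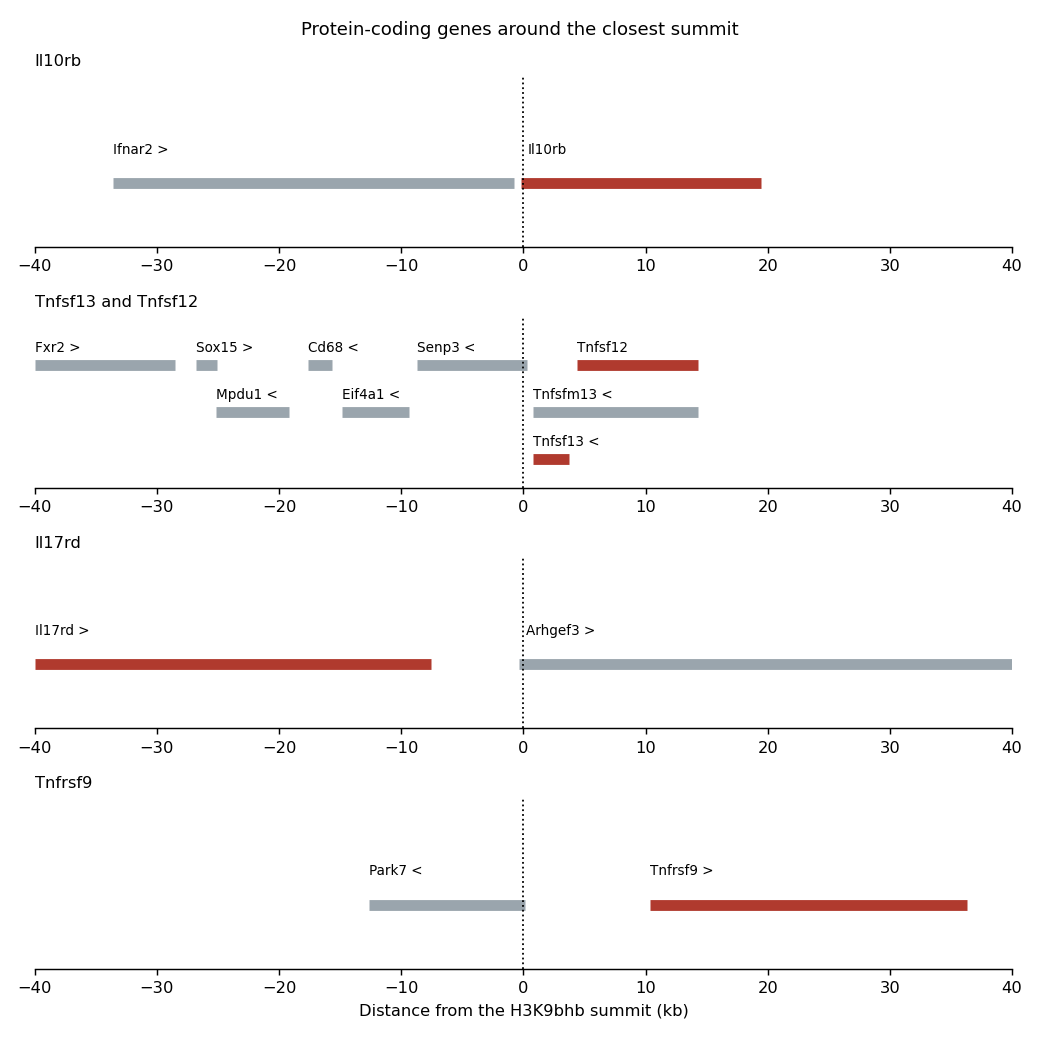
Protein-coding genes around the closest summit of 4 member loci, drawn against the distance from that summit in kb (dotted line at 0). Red bars are cytokine, chemokine or receptor genes, grey bars are other genes, and > or < gives the strand where the promoter table has one. The summit lies inside Il10rb in the top row, and inside Senp3, Arhgef3 and Park7 in the others, 750 bp, 7534 bp and 10357 bp from the closest member.

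Just outside the 5 kb limit were 5 members, all receptor genes, whose closest summits were 5997 to 18957 bp away. Tnfrsf25 encodes the death domain receptor DR3 of T cells and was 5997 bp from a summit (score 4.26) inside Espn, an actin-bundling gene, at a place 2809 bp from the closest annotated Espn start. Il17rd, which encodes a relative of the interleukin-17 receptors also known as an inhibitor of FGF signalling, was 7534 bp from a summit (4.22) that lay 359 bp inside the neighbouring gene Arhgef3. Arhgef3 and Il17rd are both on the plus strand, so this summit is past the transcript end of Il17rd. Tnfrsf9 began 10357 bp from the summit of Park7, which scored 7.89 and lay 123 bp inside that gene. Tnfrsf1b was 17524 bp from the Vps13d summit, which scored 10.5 and which 7.21% of peaks equalled or passed. Il27ra, which encodes the interleukin-27 receptor chain, was 18957 bp from a summit (8.70) 391 bp inside Misp3. In 4 of these 5 cases the summit was within 2 kb of an end of the other gene. In the whole peak list 82.4% of peaks lay as close to some protein-coding gene's end, so these cases do not stand out.

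By share, members with a peak were 1.79% of the family (3 of 168, exact 95% interval 0.370 to 5.13), and 11.4% of all protein-coding genes had one (2489 of 21900). Within 2 kb of a gene end it was 2 members (1.19%, interval 0.144 to 4.23) beside 9.40% of all genes. Both classes held few peaks: 2 of 87 ligands had one (2.3%, interval 0.280 to 8.06) and so did 1 of 78 receptors (1.28%, interval 0.0325 to 6.94). The intervals of the classes overlap, the difference was not tested, and with 2 peaks in all an order between ligands and receptors cannot be read from them. Intervals cover counting error only and treat genes as independent, which neighbours such as Tnfsf12 and Tnfsf13 are not.

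The count changed with the definition, while each version stood below the share of all genes. Summits inside the gene alone left 1 member, Il10rb, beside 8.64% of all genes, and a 2 kb flank left 2 beside 10.7%. A 10 kb flank gave 5, adding Tnfrsf25 and Il17rd, beside 13.0%. Giving each summit only to the gene with the nearest end left 1 beside 9.24%. Every summit row in place of 1 per peak gave 3 beside 11.4%. At gene ends, windows of 1 kb and 5 kb gave 2 and 3 members beside 8.49% and 10.6%. In the top 50% of peaks by score no member (0) had a peak, beside 5.77% of all genes, and none (0) had one within 2 kb of an end, beside 4.76%.

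**Figure D2:**
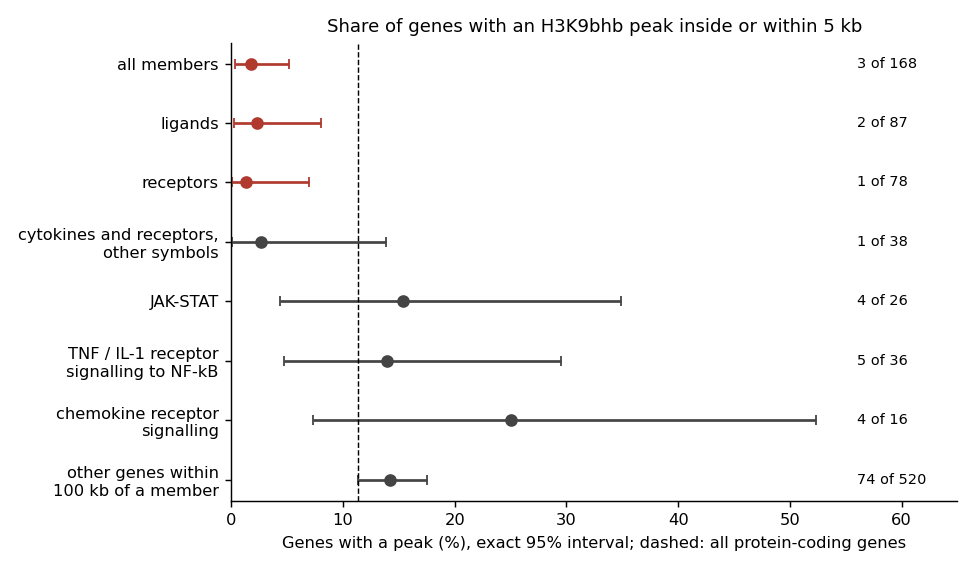
Share of genes with an H3K9bhb peak inside them or within 5 kb (x axis, percent) for the family, its ligands and receptors (red) and other lists (grey), as points with exact 95% intervals and counts at the right. The dashed line is the share of all protein-coding genes, 11.4%; the family stands at 1.79%, and the other genes within 100 kb of a member at 14.2%.

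Among the ligand families, interleukins and chemokines had no peak and the TNF superfamily had 2 genes with one. None (0) of 25 Ccl chemokine genes had a peak, a count that allows a share of up to 12.0% (3 counts of the total), nor did any (0) of 12 Cxcl genes (up to 25%). All 39 interleukin ligand genes were without one (0, up to 7.69%), and 2 of 11 Tnfsf genes (18.2%, interval 2.28 to 51.8) had the Senp3 summit nearby. The Ccl, Cxcl and Tnfsf families are small, and their counts all allow the 11.4% of all genes. The limit for interleukin ligands is below 11.4%, but that share is not matched for length. Their median length was 6.60 kb, and among the 7300 shortest protein-coding genes (up to 8.72 kb) 5.21% had a peak, which the limit allows. Several interleukin ligand genes also lie in shared clusters, so they are not independent counts. The distance from a gene to its closest summit had a median of 272 kb for Ccl, 512 kb for Cxcl, 432 kb for Tnfsf and 404 kb for interleukin ligands. The members closest to a summit and farthest from one in each family, given here, were picked from these values. Among Ccl genes they ran from 22.4 kb (Ccl28, a mucosal chemokine) to 2358 kb (Ccl20), leaving out Ccl21c. Ccl21c, a duplicated copy of a lymph node chemokine gene, is listed at 59769 to 60899 on chromosome 4. That puts it 3775 kb from a summit, but the listed position was not checked, so the distance may not hold. Among Cxcl genes they ran from 21.8 kb (Cxcl16, the ligand of Cxcr6) to 958 kb (Cxcl12, the ligand of Cxcr4). Among interleukins they ran from 25.7 kb (Il25) to 4789 kb (Il12b, a subunit of interleukin-12). The Cxcl16 summit was 95 bp inside Arrb2, which is again a neighbour.

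Receptor genes had a shorter median distance to a summit than ligand genes, and 1 of them had a peak. None (0) of 11 Ccr, 6 Cxcr and 20 Tnfrsf genes had a peak, counts that allow shares of up to 27.3%, 50% and 15.0%, all above the 11.4% of all genes, and 1 of 41 interleukin receptor genes had one. Median distances were 89.0 kb for Ccr, 142 kb for Cxcr, 94.4 kb for Tnfrsf and 413 kb for interleukin receptors. The Ccr gene closest to a summit was Ccr1, at 37.4 kb. Tnfrsf genes ran from Tnfrsf25 to 2941 kb (Tnfrsf21, death receptor 6), and interleukin receptors from inside Il10rb to 6784 kb (Il13ra2, a decoy receptor gene on X). Over all classes the median was 187 kb for receptors and 413 kb for ligands, beside 222 kb for all protein-coding genes. Summits within 100 kb were found for 27 receptors (34.6%), 16 ligands (18.4%) and 34.4% of all genes.

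**Figure D3:**
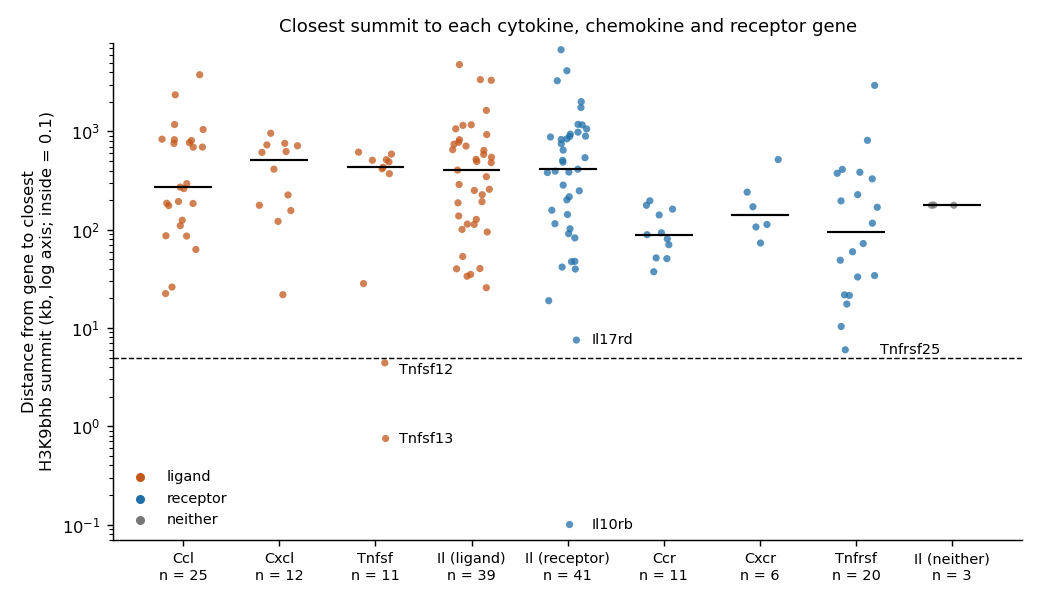
Distance from each of the 168 genes to its closest H3K9bhb summit (kb, log axis, with a summit inside the gene drawn at 0.1), by family and class, with black bars at the medians and the dashed line at 5 kb. Il10rb, Tnfsf13 and Tnfsf12 are below the line, and Tnfrsf25 and Il17rd just above it.

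The genes for the cytokines of the culture and their receptors had no peak (0 of 7). This allows a share of up to 42.9%, well above the 11.4% of all genes, so the count does not set them apart, and their distances are given as a description. Il2 (chromosome 3), the growth factor of activated T cells, was 258 kb from the closest summit, and Il15 (chromosome 8), the survival factor of memory CD8+ cells, was 929 kb away. Il2ra and Il15ra, which encode the private alpha chains for these cytokines and lie side by side on chromosome 2, were 39.8 kb and 102 kb from the same summit, 188 bp inside Rbm17 (score 7.95). Il2rb, the signalling chain both cytokines share, was 201 kb from a summit (2.77) inside Elfn2. Il2rg, the common gamma chain gene on X, was 983 kb away, and Il7r, which encodes the interleukin-7 receptor, was 1061 kb away. The order of distance was thus Il2ra, Il15ra, Il2rb, Il2, Il15, Il2rg and Il7r. Since Il2 and Il2ra are the textbook pair of T cell activation, their 250 bases before the start are shown: chr3:37125955-37126204 (minus strand) for Il2 and chr2:11642542-11642791 (plus strand) for Il2ra, again with CpGs in capitals.
Il2: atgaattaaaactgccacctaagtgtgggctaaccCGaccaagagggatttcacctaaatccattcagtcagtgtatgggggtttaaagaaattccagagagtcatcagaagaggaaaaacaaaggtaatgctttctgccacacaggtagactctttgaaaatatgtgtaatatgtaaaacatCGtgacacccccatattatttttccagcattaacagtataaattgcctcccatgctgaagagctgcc
Il2ra: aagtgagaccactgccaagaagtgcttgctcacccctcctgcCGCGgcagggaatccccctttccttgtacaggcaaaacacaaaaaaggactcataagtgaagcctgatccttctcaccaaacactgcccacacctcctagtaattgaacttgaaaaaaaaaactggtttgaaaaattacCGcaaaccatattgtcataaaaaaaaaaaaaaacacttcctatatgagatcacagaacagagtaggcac
The Il2 window held 2 CpGs and a TATAAA match, and the Il2ra window held 3 CpGs and no match to the motifs above. Of all windows, 22.6% held 2 CpGs or fewer and 29.0% held 3 or fewer.

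Many members sit in clusters, so the 168 genes are not 168 separate places. Joining members within 100 kb of each other gave 109 loci, of which 2 (1.83%) held a member with a peak. There were 77 single genes, 22 pairs and 10 clusters of 3 to 6 genes. The 10 clusters held 47 members over a summed 1.72 Mb and had no summit (0) between their outer ends, and the 3 other protein-coding genes among them had none (0) either. At the mean of 0.816 peaks per Mb over the annotated nuclear genome that span would hold 1.40 peaks. This rate does not allow for how densely genes lie in the clusters, and 82.4% of all peaks lay within 2 kb of a gene end. The count of 0 was not tested against a rate matched for genes, so nothing is read from it. The Ccl5 to Ccl4 cluster of T cell and macrophage chemokines on chromosome 11 (5 genes) was 62.9 kb from one. The second chromosome 11 chemokine cluster, Ccl2 to Ccl1 (6 genes), was 691 kb away, and the Cxcl5 to Cxcl2 cluster on chromosome 5 was 612 kb away. The interleukin-1 receptor cluster on chromosome 1 (6 genes, 467 kb long) was 508 kb from a summit, the interleukin-1 family ligands on chromosome 2 (6 genes) were 584 kb from one, and the type 2 cytokine locus of Il4, Il13 and Il5 on chromosome 11 was 1062 kb from one. A further 3 clusters, Il24 to Il10, Ccl27b to Ccl21a, and Tnfrsf26 to Tnfrsf23, were 113, 176 and 169 kb from a summit.

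Other genes around the family did have peaks. Of 520 other protein-coding genes within 100 kb of a member, 74 (14.2%, interval 11.3 to 17.5) had a peak, beside 11.4% of the 21212 genes farther away. Within 2 kb of an end it was 11.5% of these neighbours (interval 8.92 to 14.6), beside 9.41% of the farther genes. Both intervals include the share of the farther genes, the first only narrowly (lower bound 11.34%, beside 11.37%). They treat genes as independent, which genes lying close together are not, and the difference was not tested. Senp3, Tnfsfm13 and Ifnar2 are counted among the neighbours through the same summits as the members. For the 165 members without a peak, the closest summit was within 2 kb of an end of another protein-coding gene in 137 cases (83.0%), and such an end can only be one of another gene, since members with a summit within 5 kb are left out. Across the whole list of 2204 peaks, 82.4% were as close to some protein-coding gene's end. The 83.0% therefore does not set the surroundings of the family apart. Several members share 1 closest summit, so the 83.0% counts genes and not peaks. The curves of distance part at short range: within 20 kb a summit was found for 2.3% of ligands, 7.69% of receptors, 23.7% of neighbours and 16.2% of all genes, while within 1000 kb it was 87.4%, 88.5%, 91.2% and 81.1%.

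**Figure D4:**
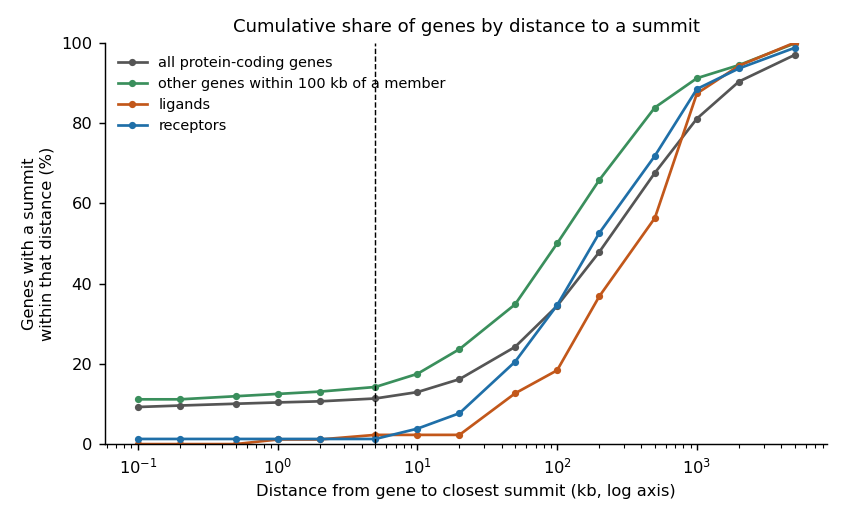
Cumulative share of genes (percent) with a summit within a given distance (kb, log axis) for ligands, receptors, the other genes within 100 kb of a member and all protein-coding genes. Below 5 kb (dashed line) the ligand and receptor curves are at or under 2.3%, and by 1000 kb all 4 curves are between 81.1% and 91.2%.

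Members are shorter than most genes (median 10.3 kb, ligands 5.46 kb, receptors 19.9 kb, all genes 17.1 kb), and short genes had fewer peaks, so the counts were also set out by length. All genes were ranked by length into 3 classes of 7300. In the shortest class (up to 8.72 kb) 5.21% of all genes had a peak, and 1 of 78 members did (1.28%, interval 0.0325 to 6.94). In the middle class it was 11.8% of all genes and 2 of 57 members (3.51%, interval 0.428 to 12.1). In the longest class (from 31.2 kb) it was 17.1% of all genes and 0 of 33 members, which allows up to 9.09%. Members were below all genes in each class, and in the shortest and middle classes the interval includes the share of all genes. The share of all genes with a summit within 2 kb of an end rose with length too, from 4.45% to 9.79% and 13.9%. Ligands made up 59 of the 78 members in the shortest class, and receptors 26 of the 33 in the longest. The 6 members on X had none (0), and they are too few to read anything from.

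**Figure D5:**
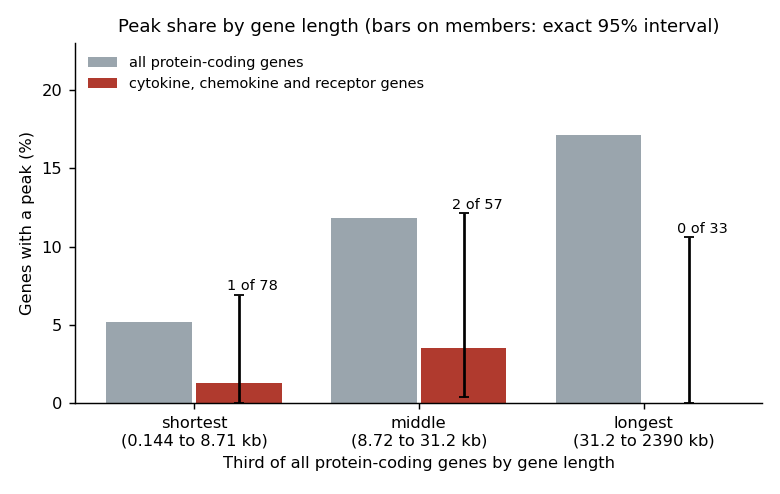
Share of genes with a peak (percent) in 3 classes of gene length, each of 7300 protein-coding genes, for all genes (grey) and for the cytokine, chemokine and receptor genes (red, with exact 95% intervals and counts). The grey bars rise from 5.21% to 17.1%, and the red bars stand at 1.28%, 3.51% and 0.

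Of the signalling genes downstream of these receptors, 13 of 78 on 3 lists had a peak (16.7%, interval 9.18 to 26.8). The interval includes the 11.4% of all genes. Within 2 kb of an end it was 11 of 78 (14.1%, interval 7.26 to 23.8), beside 9.40% of all genes. The median length of the 78 genes was 28.8 kb, against 17.1 kb for all genes. The list of JAK-STAT genes had 4 of 26 (15.4%, interval 4.36 to 34.9), all within 2 kb of a gene end. These were Pias3 (score 9.12) and Pias1 (2.08), SUMO ligases that restrain STAT factors, Socs4 (7.70), a suppressor of cytokine signalling, and Ptpn2 (4.22), a phosphatase that acts on JAK kinases. Their summits lay 891, 131, 88 and 231 bp inside an end of the gene, and for Pias3, Socs4 and Pias1 the strand shows that end to be the start. Jak1, Jak3, Stat5a and Stat5b, the kinases and factors of the interleukin-2 and interleukin-15 receptors, had none and were 1436, 73.7, 341 and 366 kb from a summit; like Ifng and Tnf below, they were picked for their textbook role after the values were seen. Stat6, the factor of interleukin-4 signalling, was 5658 bp from a summit that lay 58 bp inside Nab2, and was counted only with a 10 kb flank; it was also picked after the values were seen.

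Signalling from TNF and interleukin-1 receptors to NF-kB had 5 of 36 (13.9%, interval 4.67 to 29.5). Birc2 (7.95), a ubiquitin ligase bound to TNF receptors through TRAF2, had its summit 5 bp outside its start. Tab3 (6.78) and Tab1 (4.54), adaptors of the kinase TAK1, had summits 269 and 204 bp inside an end, and Map3k14 (5.26), the kinase NIK of the alternative NF-kB pathway, had one 168 bp inside its start. Tradd (2.61), the adaptor of TNF receptor 1, was 4204 bp from its summit, which lay nearer to an end of B3gnt9. Chemokine receptor signalling had 4 of 16 (25%, interval 7.27 to 52.4): Arrb2 (10.5), which encodes β-arrestin 2, Elmo1 (7.01), a partner of Dock2 in cell migration, Grk6 (5.47), a kinase of G protein-coupled receptors whose summit lay nearer to Prr7, and Gnb1 (3.72), a G protein subunit. The Arrb2 summit is also the one closest to Cxcl16.

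Cytokine and chemokine genes that carry other symbols were counted apart. Of 38 such genes, among them interferon, TNF, lymphotoxin and colony-stimulating factor genes with their receptors, 1 had a peak (2.63%, interval 0.0666 to 13.8, which includes the share of all genes). It was Ifnar2, through the Il10rb summit 793 bp beyond its transcript end. Ifng was 731 kb and Tnf 34.6 kb from the closest summit. With these genes added to the signalling lists, the 4 lists together had 14 of 116 (12.1%, interval 6.76 to 19.4), beside 11.4% of all genes. No test was made between these lists and the family. The intervals of the 3 signalling lists, of 16 to 36 genes, are wide and each includes the 11.4% of all genes.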

How the data were processed

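One H3K9bhb ChIP library of mouse CD8+ memory T cells was analysed; its input has no values here. The tools named per the submitters' processing notes are MACS2 2.1.2, Bowtie2 2.3.5, Trimmomatic 0.39 and FastQC 0.11.8, on mm10; caller settings, and whether the input served as control, are not stated there. The authors deposited a −log10 p or q value, here named the score, for 2315 summits belonging to 2204 peaks. Only the highest summit per peak was used. Positions were set against RefSeq genes of GRCm38.p6; strands and starts came from the RefSeq promoter table of that assembly, which lacks some genes. All listed genes matched. Counting was tested on simulated summits. Intervals are exact (Clopper-Pearson, 95%); in the text a count of 0 has in place of an interval the share that 3 counts would give. Alternatives covered flanks, windows, scores, summit rows and nearest-end assignment. Genes named are all members with a peak, those 5 to 20 kb from a summit, the culture's cytokines and receptors, and up to 6 list genes by score; others are said to be picked from their values or are clusters joined by position. The members and lists were chosen with earlier results of these data known. The Nrf1 motif of the design is not reported. One gene cluster is counted but not reported here by name. Software was scipy 1.17.1, pandas 2.3.3, numpy 2.4.6 and matplotlib 3.10.9 under Python 3.11.15.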

Additional observations from a re-analysis of the deposited data

How the results depend on the processing

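Few peaks underlie each count, so small changes of definition move it. Members with a peak numbered 3 and became 1 with summits inside the gene alone, 5 with a 10 kb flank, 1 by the nearest end and 0 in the top 50% of peaks. Ligands with a peak numbered 2 and became 0 inside the gene, 1 with a 2 kb flank, 1 within 2 kb of an end, 0 by the nearest end and 0 in the top 50%. Receptors with a peak numbered 1 and became 3 with a 10 kb flank and 0 in the top 50%. Members with a peak near an end numbered 2 and became 0 in the top 50%, beside 9.40% and 4.76% of all genes. For the counts before these, the share of all genes was 11.4% at first, 8.64% inside the gene and 10.7% with a 2 kb flank. It was 13.0% with a 10 kb flank and 9.40% within 2 kb of an end. By the nearest end it was 9.24%, and in the top 50% it was 5.77%. The 14 of 116 other pathway genes with a peak (12.1%) became 8 (6.90%) in the top 50%, where fewer peaks are counted by construction. Of all genes, 11.4% and 5.77% had a peak in the same counts. By list, JAK-STAT went from 4 to 2 of 26 and signalling to NF-kB from 5 to 3 of 36. Cytokine genes with other symbols went from 1 to 0 of 38. The other alternatives run for these counts stayed within 1.5 times of them. No paired analysis was possible because the list comes from 1 library. Read depth per peak is unknown, so a gene without a called peak is not shown to lack the mark.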
